A study of Mus musculus with 3 samples.

Results

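The nuclear factor I family was measured on 3 two-colour arrays, each of which set the dorsal cortex of 1 wild-type pup beside that of 1 Brpf1-deficient pup, all mice of postnatal day 4. Its 4 genes are Nfia, Nfib, Nfic and Nfix, and they were taken as every non-control probe whose accession belongs to one of them. This gave 12 of the 55681 non-control probes: 2 for Nfia, 5 for Nfib, 3 for Nfic and 2 for Nfix, each on 1 spot. All 12 were named through their RefSeq accession, so no member depends on a value of the arrays.

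Nuclear factor I proteins are transcription factors that bind DNA as dimers, on a palindrome whose arms read TTGGC. In the developing cortex they move radial glia towards neuron and astrocyte production, and mice without Nfia, Nfib or Nfix have defects of the corpus callosum, the tract that joins both hemispheres. The glia of the midline shape and guide the path of crossing axons. Nfic is best known for its part in tooth root formation. Brpf1 encodes a scaffold of histone acetyltransferase complexes, and the arrays ask which genes differ when it is deficient.

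Per the labels, RNA of the wild-type pup carried Cy3 and RNA of the Brpf1-deficient pup carried Cy5 on every array, with 350 ng of total RNA amplified in a single round. No pup was treated. The labels number the pairs 1 to 3, and they state neither the strain or sex of the pups, nor how or in which cells Brpf1 was removed nor whether the pups came from separate litters, so p-values measure only the spread between these 3 arrays. A dye effect on a probe cannot be told apart from the genotype, since the dyes were never swapped. Brpf1 itself was brighter in Cy5, the channel labelled Brpf1-deficient, at 0.62, 0.73 and 0.96 on the log2 scale (mean 0.77 ± 0.17, SD, n = 3 arrays, limma adjusted p = 0.00453). A loss of RNA at this probe in that channel would give the opposite sign. Whether the probe lies in a part of Brpf1 that was removed is not known. The authors' deposited table gives the 1 Brpf1 probe a log fold change of -0.80. That table has the opposite sign for all 5557 probes called here and for all 10 nuclear factor I probes it lists, and its direction is not given in the sources used here. Every ratio below is therefore given by channel: above 0 is brighter in Cy5 (labelled Brpf1-deficient), below 0 brighter in Cy3 (labelled wild type), and which genotype each belongs to is not settled.

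Depending on array and channel, 57.9% to 61.0% of non-control spots had a signal well above background. All 12 nuclear factor I probes were among the 32983 probes kept, a filter that asked for such a signal in either channel on 2 or more arrays. Except for 1 Nfia probe, all were well above background in both channels on all 3 arrays. Of the 12 probes, 3 were called brighter in Cy5 and none in Cy3 by limma at an adjusted p of 0.05, against 7.48% and 9.37% of all probes kept (16.8% in either direction). Of the calls over all probes, 44.4% were in Cy5, and 80.4% with median centring in place of loess. The 3 called probes belong to Nfix, whose 2 probes were both called, and to Nfia. At an unadjusted p under that threshold, 1 Nfib and 1 Nfic probe were added, in opposite directions. The median log2 ratio over the 12 probes was 0.10, against -0.01 over all probes kept. The ratio was above 0 on all 3 arrays for 4 of the 12 probes and below 0 on all 3 for 2, both of Nfib, against 28.2% and 31.5% of all probes kept. After the median ratio of probes of like intensity was set to 0, an alternative added after seeing the data, the same 3 probes were called, against 7.27% of all probes in that direction and 15.5% in either.

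**Figure D1:**
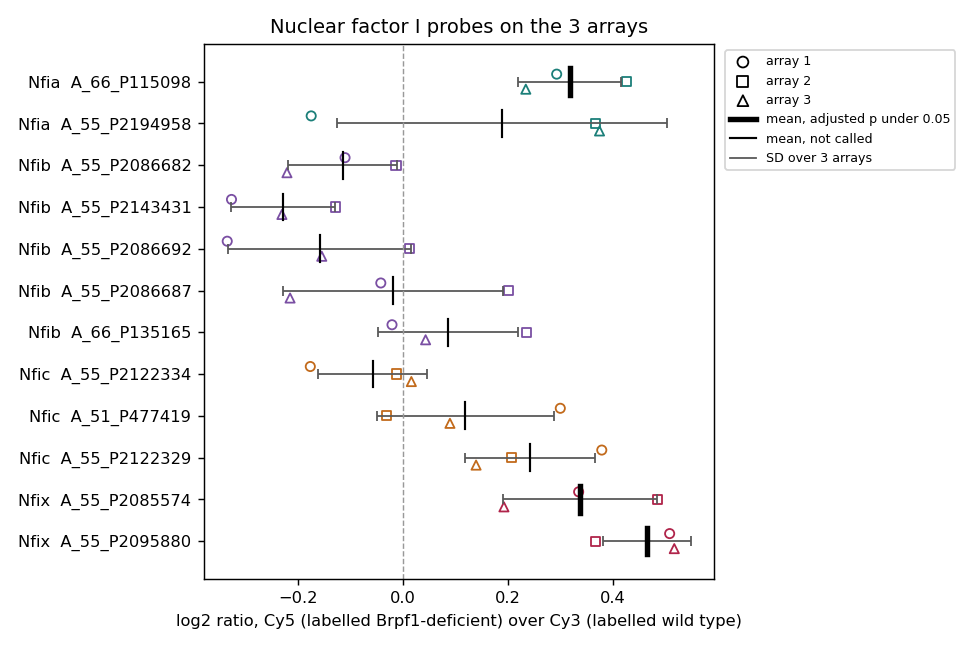
Log2 ratio of Cy5 over Cy3 (horizontal axis) for each nuclear factor I probe (rows), with open symbols for the 3 arrays, a vertical bar for the mean and a horizontal bar for the SD over arrays. Both Nfix probes lie above 0 on every array, at means of 0.34 and 0.46, while the 5 Nfib probes lie around 0, between -0.23 and 0.09.

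For the called genes, and to show what stands before their starts, the 250 bases upstream of a start listed by RefSeq (GRCm38.p6) are given, with each TTGGC on either strand in capitals. Nfia has 1 listed start, Nfic 1 and Nfix 4, of which starts 1, 2 and 4 along the direction of transcription are shown.
Nfia at chr4:97581693-97581942, plus strand: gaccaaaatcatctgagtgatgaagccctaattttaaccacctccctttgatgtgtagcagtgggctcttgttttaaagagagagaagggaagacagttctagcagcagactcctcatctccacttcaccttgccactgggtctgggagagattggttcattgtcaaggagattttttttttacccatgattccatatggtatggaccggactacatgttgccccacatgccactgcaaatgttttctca
Nfix at chr8:84780083-84780332, minus strand: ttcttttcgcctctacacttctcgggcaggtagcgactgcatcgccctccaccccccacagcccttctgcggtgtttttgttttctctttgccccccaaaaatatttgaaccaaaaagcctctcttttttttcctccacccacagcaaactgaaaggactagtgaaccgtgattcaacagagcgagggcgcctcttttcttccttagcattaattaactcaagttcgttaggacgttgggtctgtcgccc
Nfix at chr8:84775829-84776078, minus strand: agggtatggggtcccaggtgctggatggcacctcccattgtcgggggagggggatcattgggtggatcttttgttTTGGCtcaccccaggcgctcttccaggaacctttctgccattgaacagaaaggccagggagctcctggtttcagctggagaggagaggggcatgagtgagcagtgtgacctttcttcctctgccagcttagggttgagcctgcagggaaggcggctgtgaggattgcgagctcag
Nfix at chr8:84772876-84773125, minus strand: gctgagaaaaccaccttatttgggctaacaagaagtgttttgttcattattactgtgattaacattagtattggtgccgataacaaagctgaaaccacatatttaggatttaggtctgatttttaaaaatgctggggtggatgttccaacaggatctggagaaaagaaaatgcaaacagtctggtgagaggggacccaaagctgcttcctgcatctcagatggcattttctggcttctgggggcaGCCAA
The arm TTGGC occurs 1 time in the windows of Nfix starts 2 and 4, and these letters are not in the windows of Nfia, Nfic or the other Nfix starts. The whole palindrome is in none of them. Searched on both strands, the arm is found in 41.5% of 32851 listed windows of this length, and the palindrome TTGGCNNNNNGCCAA, which holds the arm on both strands, in 0.0365% of them. A match of these letters is a description of the window and shows no binding. The GC content was 44.8% in the Nfia window and 49.2%, 58.4% and 42.0% in the 3 Nfix windows shown.

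Nfix, which promotes the differentiation of neural progenitors, had the largest mean ratios of the family in the main processing. With the processed signals the Nfia probes stood higher, at 0.55 and 0.66 against 0.48 and 0.28 for Nfix. Its probe A_55_P2095880, for accession NM_001081981, had normalised log2 levels of 10.96, 10.89 and 10.80 in Cy3 and of 11.47, 11.25 and 11.32 in Cy5 on arrays 1, 2 and 3. All 3 Cy5 levels lay above all 3 Cy3 levels. Such a separation towards Cy5 was found in 15.7% of all probes kept. The log2 ratios were 0.51, 0.37 and 0.52, with a mean of 0.46 ± 0.08 (SD, n = 3 arrays), or 1.38-fold. The limma adjusted p was 0.0124 and the 95% interval of the log2 ratio ran from 0.29 to 0.63. This ratio stood at the 97.8th percentile of all probes kept. The probe was called in all 11 alternative settings that tested it, with adjusted p between 0.00184 and 0.0480.

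The second Nfix probe, A_55_P2085574 for accession NM_010906, was far brighter on the array. Its log2 levels were 15.20, 15.04 and 15.25 in Cy3 and 15.54, 15.53 and 15.44 in Cy5. The channels again did not overlap, and array 3 had the smallest gap. Its ratios of 0.33, 0.48 and 0.19 had a mean of 0.34 ± 0.15 (SD, n = 3 arrays, limma adjusted p = 0.0339), a 1.26-fold difference. The 501 probes nearest to it in intensity had a median ratio of -0.05, so the probe stood 0.39 above probes of like brightness. This call was lost without array 1, 2 or 3 (adjusted p = 0.0541, 0.128 and 0.0577) and with the processed signals of the scanner software (ratio 0.28, adjusted p = 0.112). With median centring its ratio was 0.72. Averaged over both probes, Nfix had 0.42, 0.43 and 0.35 on the 3 arrays, a mean of 0.40 ± 0.04 (SD, n = 3 arrays). That SD was smaller than the 0.08 and 0.15 of the single probes, since their patterns over arrays ran opposite ways. The second probe minus the first gave -0.17, 0.12 and -0.32. The SD between the means of the Nfix probes was 0.09.

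**Figure D2:**
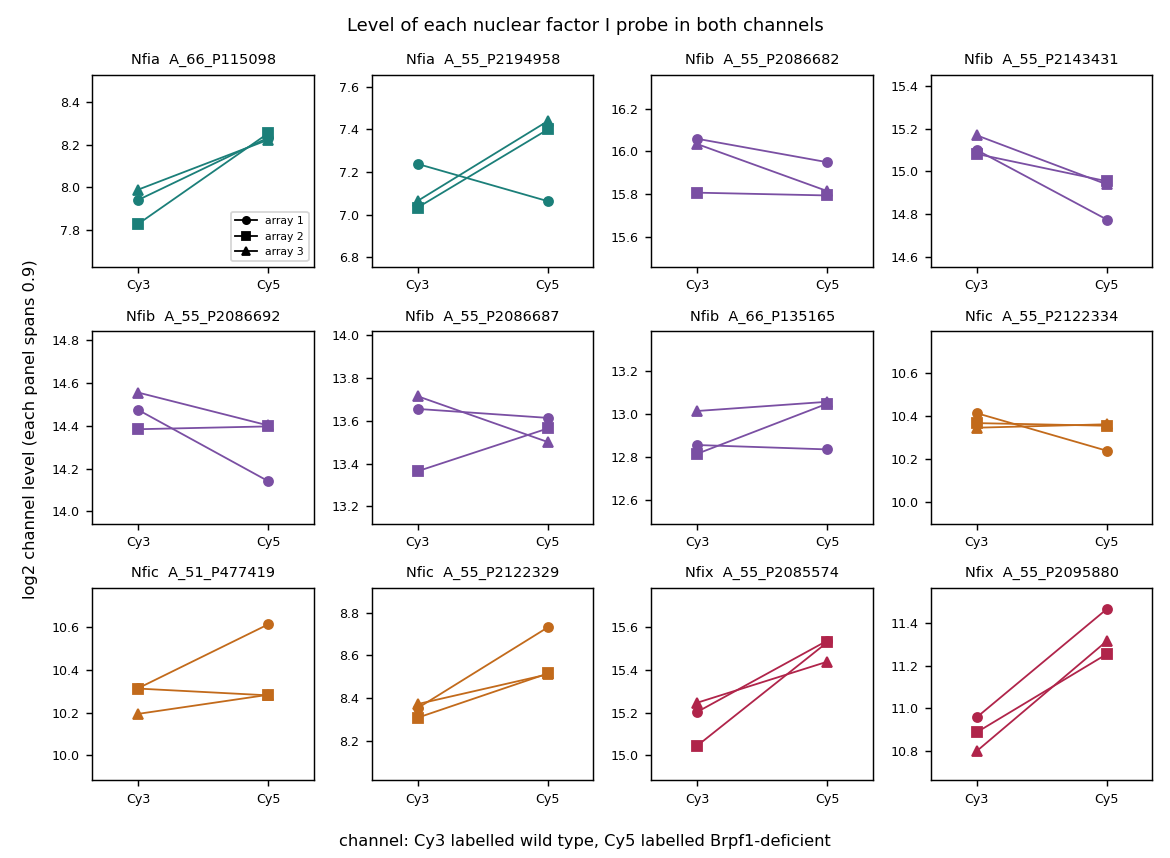
Normalised log2 level of each nuclear factor I probe (vertical axes, each spanning 0.9) in Cy3, labelled wild type, and Cy5, labelled Brpf1-deficient, with a line joining the channels of 1 array. Both Nfix probes, Nfia probe A_66_P115098 and Nfic probe A_55_P2122329, which was not called, have lines that rise on all 3 arrays with no overlap between channels. Nfib probe A_55_P2143431 has lines that fall on all 3 without overlap, and those of Nfib probe A_55_P2086682 fall on all 3 with overlap.

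Nfia, which drives the onset of glial production in the developing nervous system, had 1 called probe of 2. Probe A_66_P115098, for accession NM_001122953, had log2 levels of 7.94, 7.83 and 7.99 in Cy3 and of 8.23, 8.25 and 8.22 in Cy5. The channels did not overlap, and the Cy5 levels lay within 0.03 of each other while the Cy3 levels varied more. The ratios were 0.29, 0.43 and 0.23, and their mean of 0.32 ± 0.10 (SD, n = 3 arrays), or 1.25-fold, passed at a limma adjusted p = 0.0318. The call was lost without array 2 (adjusted p = 0.127) or array 3 (adjusted p = 0.0824), and with the processed signals, where the ratio was larger at 0.55 but its adjusted p was 0.0597.

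Nfia probe A_55_P2194958, for accession NM_010905, is dim, and was well above background in Cy3 on 1 array and in Cy5 on 2. Its log2 levels were 7.24, 7.03 and 7.06 in Cy3 and 7.06, 7.40 and 7.44 in Cy5. Array 1 went the opposite way from the other two arrays, and the channels overlapped. The mean log2 ratio was 0.19 ± 0.31 (SD, n = 3 arrays) with a limma adjusted p of 0.273, and the 95% interval ran from -0.08 to 0.46. Without array 1 the ratio was 0.37 with an adjusted p of 0.0229, and with array weights 0.29 with an adjusted p of 0.0485. Without array 2 or 3 it was 0.10, and with the processed signals 0.66 (adjusted p = 0.160), none of them called. The difference between the Nfia probes was 0.47, 0.06 and -0.14 on the 3 arrays, so it did not hold one direction.

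Nfib, which acts with Nfia in midline glia and in callosal neurons, had no called probe among 5. The brightest, A_55_P2086682, had ratios of -0.11, -0.01 and -0.22, with a mean of -0.11 ± 0.10 (SD, n = 3 arrays). Probe A_55_P2143431 had ratios of -0.33, -0.13 and -0.23, with a mean of -0.23 ± 0.10 and a limma adjusted p of 0.0717. It was the only Nfib probe whose channels did not overlap, with Cy3 levels of 15.10, 15.08 and 15.17 above Cy5 levels of 14.77, 14.95 and 14.94, a separation that 20.3% of all probes kept showed in this direction. Probes of like brightness had a median ratio of -0.07, which leaves -0.16 for this probe. Probe A_55_P2086692 had a mean of -0.16 ± 0.17, with ratios of -0.33, 0.01 and -0.15.

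The other two Nfib probes were closest to 0 or above it. Probe A_55_P2086687, the only one for accession NM_008687, had ratios of -0.04, 0.20 and -0.21 and a mean of -0.02 ± 0.21 (SD, n = 3 arrays). Probe A_66_P135165 had -0.02, 0.23 and 0.04, with a mean of 0.09 ± 0.13. Array 2 gave the highest ratio for all 5 Nfib probes. The 95% intervals of the 5 probes together spanned -0.40 to 0.27, and that of A_55_P2143431 alone left out 0 (-0.40 to -0.05, before adjustment). With median centring in place of loess, all 5 Nfib ratios were above 0, and that of the brightest probe was 0.34 with an adjusted p of 0.0313.

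**Figure D3:**
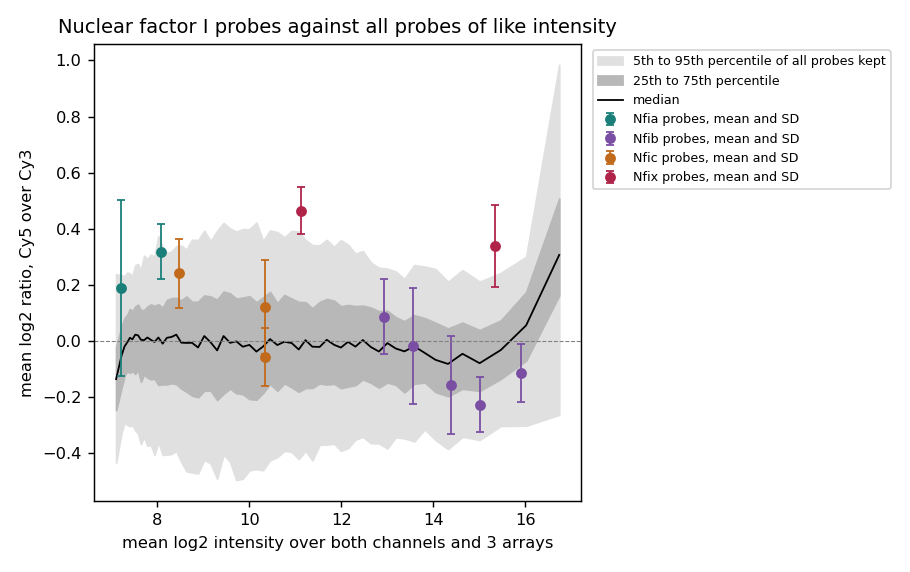
Mean log2 ratio (vertical axis, bars show the SD over 3 arrays) against mean log2 intensity (horizontal axis) for the nuclear factor I probes, over bands that hold the stated percentiles of all probes kept. The Nfix probes lie above the 95th percentile band at both their intensities, the Nfib probes inside the bands, and the median of all probes bends upwards beyond an intensity of 16.

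Nfic had no called probe among 3, which all carry accession NM_008688. The means of its probes ran from -0.06 to 0.24. Probe A_55_P2122329 had ratios of 0.38, 0.21 and 0.14, with a mean of 0.24 ± 0.12 (SD, n = 3 arrays) and a limma adjusted p of 0.0690. Its Cy5 levels of 8.73, 8.52 and 8.51 lay above its Cy3 levels of 8.35, 8.31 and 8.37. Probe A_51_P477419 had 0.30, -0.03 and 0.09 (mean 0.12 ± 0.17), and probe A_55_P2122334 had -0.18, -0.01 and 0.02 (mean -0.06 ± 0.10). The first of these exceeded the last on all 3 arrays, by 0.55, 0.22 and 0.12. The SD between the means of the 3 Nfic probes was 0.15. The SDs of these single probes over arrays, 0.12, 0.17 and 0.10, were of like size. Their average had an SD of 0.06 over arrays.

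Between genes, the mean over probes ran from 0.40 ± 0.04 for Nfix through 0.25 ± 0.17 for Nfia and 0.10 ± 0.06 for Nfic to -0.09 ± 0.13 for Nfib (SD, n = 3 arrays). These SDs are of averages over probes, and for Nfix and Nfic they were below those of the single probes. Nfix exceeded Nfib on every array, by 0.59, 0.36 and 0.51, and Nfic on every array, by 0.25, 0.37 and 0.27. Nfia exceeded Nfib by 0.23, 0.33 and 0.46. With 3 arrays, the exact two-sided sign-flip test cannot give a p below 0.25, and that value was reached by these 3 of the 6 pairs and by Nfix over Nfia (0.375 after adjustment over the 6 pairs). Nfix and Nfia differed by 0.36, 0.03 and 0.05, so these neighbours in the order rested on array 1, on which the dim Nfia probe was low. For Nfia against Nfic and Nfib against Nfic the sign differed between arrays (exact p = 0.50). The mean gap of 0.49 between Nfix and Nfib lay between 0.44 and 0.55 under all alternatives that gave a value, median centring included. The order of Nfix and Nfia turned with the processed signals, as given above.

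The authors' deposited table is a comparison over these same arrays, so it is not an independent measurement. Its log fold changes had a Pearson r of -0.94 with the ratios here, over 23924 probes. In it the Nfix and Nfia probes stood together on one side and most Nfib probes on the other. There the Nfix probes have log fold changes of -0.49 and -0.33, the Nfia probes -0.52 and -0.45, and 2 Nfic probes -0.36 and -0.14, while 3 of 4 listed Nfib probes lie above 0, at 0.13, 0.16 and 0.24. No nuclear factor I probe passes an adjusted p of 0.05 in that table, whose smallest adjusted p over all probes is 0.159. Nfix probe A_55_P2095880 and Nfia probe A_66_P115098 have the table's smallest p-values of the family, 0.00762 and 0.00840, each with an adjusted p of 0.240. The table lists only p-values up to 0.458, and the Nfib probe for NM_008687 and Nfic probe A_55_P2122334 are not in it.

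**Figure D4:**
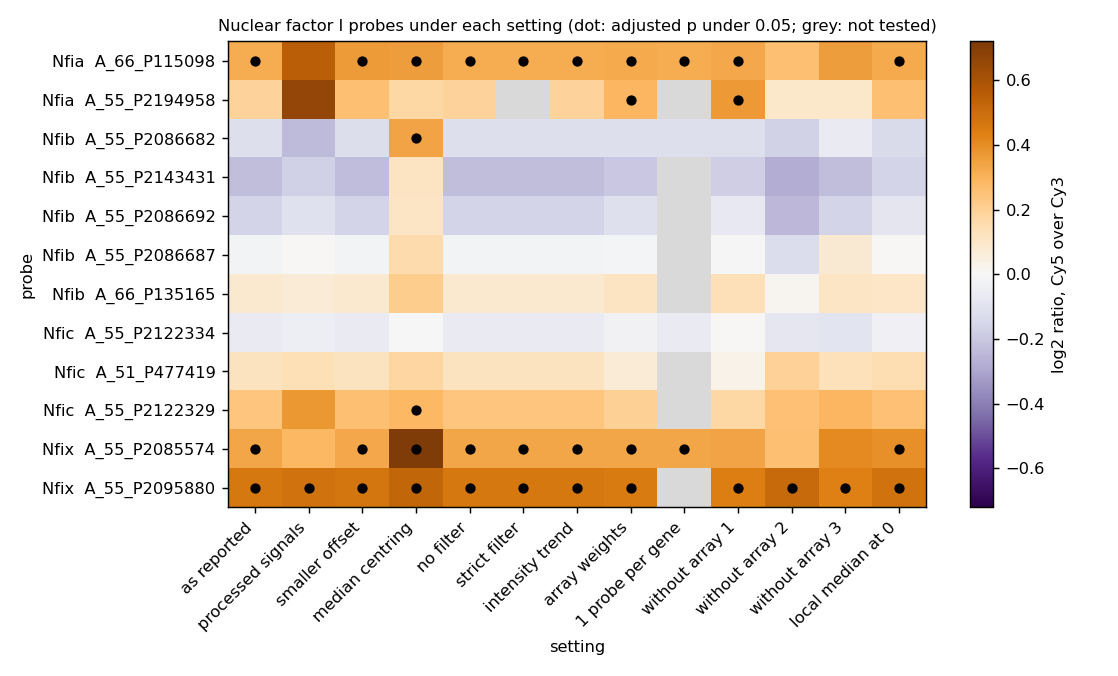
Log2 ratio of Cy5 over Cy3 (colour) for each nuclear factor I probe (rows) under each processing setting (columns), with a dot where the limma adjusted p was under 0.05 and grey where the probe was not tested. Nfix probe A_55_P2095880 carries a dot in every column that tested it, and 3 of the Nfib rows turn from below to above 0 with median centring only, while probe A_55_P2086687 changes sign between several settings, from -0.13 to 0.16.

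Genes listed as acted on by nuclear factor I proteins did not share a direction. Of 20 listed genes, 19 were measured, each by its brightest probe; 4 were called brighter in Cy3 and 1 in Cy5, against 8.99% and 7.75% of the 23232 genes tested (16.7% in either direction). Their median log2 ratio was -0.02, against -0.01 over all genes. Gfap, the intermediate filament gene of astrocytes and a classic target of the family, had ratios of -0.37, -0.28 and -0.31 (mean -0.32 ± 0.05, SD, n = 3 arrays, limma adjusted p = 0.0263), with other probes at -0.22 and 0.07. Slc1a3, a glutamate transporter of radial glia and astrocytes, had -0.39, -0.43 and -0.32 (mean -0.38 ± 0.05, adjusted p = 0.0177). Cdh2, encoding N-cadherin, had -0.45, -0.52 and -0.59 (mean -0.52 ± 0.07, adjusted p = 0.00844), and Gria1, a glutamate receptor subunit, had a mean of -0.34 ± 0.07.

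These 4 genes and Sox9, of the 19 measured, had ratios below 0 on all 3 arrays, against 31.5% of all probes kept. Ratios above 0 on all 3 arrays were found for 5 of the 19, against 28.2% of all probes kept. These were Fabp7 and, not called, Apcdd1 (mean 0.24 ± 0.07, SD, n = 3 arrays, limma adjusted p = 0.0563), Insc (0.25 ± 0.22), Id4 (0.19 ± 0.09) and Mmd2 (0.08 ± 0.07), the last 4 named after their values were seen. Fabp7, a fatty acid binding protein of radial glia, was the 1 gene called in Cy5, at 0.31 ± 0.10 (SD, n = 3 arrays). Its very bright probe stood at -0.01 relative to probes of like brightness, whose median ratio was 0.33. Hes1, Sox9 and Ezh2, which family members are known to repress in progenitors, were not called. Hes1, an effector of Notch signalling, had -0.12 ± 0.36, Sox9, a glial fate factor, -0.23 ± 0.13, and Ezh2, a histone methyltransferase, -0.07 ± 0.08. They belong to a fixed set of named genes, and the list was not divided into activated and repressed genes. With median centring the list had 5 genes called in Cy5 and none in Cy3, and with the processed signals 0 and 1. In these settings 20.5% and 4.35% of all probes kept were called in either direction.

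**Figure D5:**
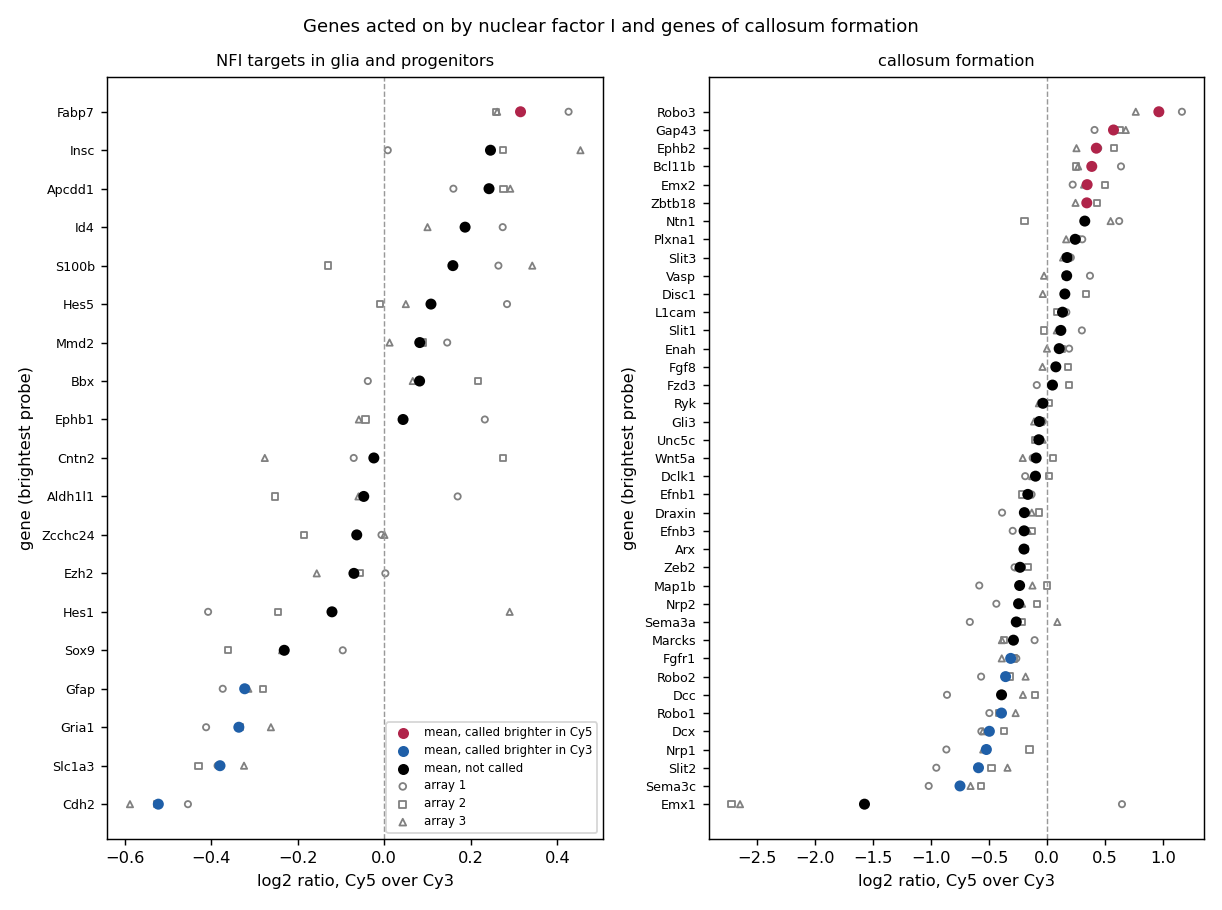
Log2 ratio of Cy5 over Cy3 (horizontal axes) of each measured gene acted on by nuclear factor I (left) and of the genes of callosum formation (right, without 1 gene that is not reported here), by its brightest probe, with open symbols for the 3 arrays and filled dots for the mean. Of the left genes 4 are called towards Cy3 and 1 towards Cy5, of the right genes 7 and 6, and Emx1 stands apart with array 1 on the opposite side of arrays 2 and 3.

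All 40 listed genes of callosum formation were measured. In these, 7 were called brighter in Cy3 and 6 in Cy5, against 8.99% and 7.75% of all genes tested, with a median of -0.08 against -0.01. The counts rest on each gene's brightest probe. Fgfr1, counted in Cy3 at -0.31, had 2 other kept probes at 0.12 and 0.23. Robo2, at -0.36, had others at -0.35 and 0.004. The other kept probes of Robo1, Sema3c and Dcx were below 0, and Slit2 and Nrp1 had none. Toward Cy3 were Slit2, a repellent made by midline glia (-0.96, -0.48 and -0.34; mean -0.59 ± 0.32, SD, n = 3 arrays, limma adjusted p = 0.0216), its receptor Robo1 (mean -0.39 ± 0.11), Sema3c, which attracts callosal axons (mean -0.75 ± 0.24), and Dcx, a microtubule protein of migrating neurons (mean -0.50 ± 0.11). Toward Cy5 were Robo3, a receptor in midline crossing (mean 0.96 ± 0.20), and Gap43, a growth cone protein (mean 0.57 ± 0.14, where probes of like brightness had a median of 0.33). Emx1, a cortical homeobox gene, had 0.65 on array 1 but -2.72 and -2.65 on arrays 2 and 3. Among nuclear factor I probes, array 1 also had the opposite sign from arrays 2 and 3 for the dim Nfia probe and for Nfib probe A_66_P135165, at a far smaller size (-0.17 and -0.02 on array 1). The labels give pair 1 the same genotypes as the other pairs, and whether it differs from them in more than these values was not tested. Without array 1, Nfix probe A_55_P2095880 and both Nfia probes were called, with ratios of 0.44, 0.33 and 0.37. The other Nfix probe, at 0.34, lost its call in that fit (limma adjusted p = 0.0541). In it 12.6% of all probes kept were called in either direction.

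Markers of the cells in the sample were read beside the family, against the 7.75% of all genes called in Cy5 and 8.99% in Cy3. Among 8 astrocyte markers, Gfap and Slc1a3 were called in Cy3 and none in Cy5 (median -0.06), and among 7 oligodendrocyte lineage markers none was called (median 0.09, with Sox10 at 0.29 and Olig2 at 0.15). Of 6 cortical excitatory neuron markers 2 were brighter in Cy5, Slc17a7 and Tbr1, and 1 in Cy3, Neurod6. All markers of these 3 lists were measured and well above background in both channels on all arrays, except Emx1 in Cy5 on 1 array. In bulk tissue, fewer cells of a type and less RNA per cell cannot be told apart.

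The 6 striatum markers were all brighter in Cy5, with Penk at 1.08 ± 0.56 and Adora2a at 0.71 ± 0.41 (SD, n = 3 arrays). The mean log2 level of the 6 ranged over arrays from 10.73 to 11.85 in Cy3 and from 12.13 to 12.27 in Cy5. The striatum ratios were largest on array 1 and smallest on array 2 for all 6 genes. Nfix probe A_55_P2095880 was also lowest on array 2, with arrays 1 and 3 close together, and probe A_55_P2085574 was highest on array 2. Of 4 measured erythroid markers 2 were brighter in Cy5, Hba-a1 and Hba-a2 at 1.10 each, with mean levels of 13.58 to 14.94 in Cy3 and 14.90 to 15.40 in Cy5. The part of striatal tissue or blood in the Nfix and Nfia ratios was not tested. Of the other lists, read against the same shares, microglia had 2 of 6 brighter in Cy5 (C1qb at 0.36 and C1qa at 0.32). The other microglia markers were not called (Cx3cr1 at 0.11, Csf1r at 0.07, Aif1 at 0.07 and P2ry12 at -0.07). Endothelial cells had 1 of 5 brighter in Cy5 (Cldn5 at 0.30), with Tek at 0.16, Flt1 at 0.12, Pecam1 at 0.06 and Cdh5 at -0.06 not called. Interneurons had 1 of 6 in Cy5 (Slc32a1 at 0.33) and 2 in Cy3 (Dlx1 at -0.56 and Lhx6 at -0.39). None of 5 markers of meninges and fibroblasts was called (Col3a1 at -0.22, Col1a1 at -0.33, Col1a2 at -0.13, Dcn at 0.07 and Lum at 0.02). Nor was any of 4 of choroid plexus (Clic6 at 0.27, Folr1 at 0.27 and Kl at -0.11). Ttr, the transthyretin gene of choroid plexus, had -2.60 on array 1 but 1.14 and 0.10 on arrays 2 and 3.

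By the root mean square difference of the log2 ratios over the 3 arrays, Ugt1a10 and Upp1 lay nearest to the brightest Nfix probe (0.0266 and 0.0273) and Kcns1 and Mb21d2 to that of Nfia (0.0226 and 0.0296), among 15100 named genes. Tlr4 and Rab11fip1 lay nearest to Nfib, and Arl6ip4 and Hdac6 to Nfic. Within a distance of 0.05 there were 13 genes for Nfix, 23 for Nfia, 83 for Nfib and 297 for Nfic. With 3 arrays this likeness is a description of ratios only.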

How the data were processed

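RNA of 1 pup labelled wild type (Cy3) and 1 labelled Brpf1-deficient (Cy5) was hybridised to each of 3 arrays of 1 slide, read in 1 scan. The deposited scanner files hold unnormalised median spot and background intensity from Agilent Feature Extraction 10.7.3.1 on an mm9 grid, per the file headers. The processed intensity values of the same software, also deposited, were used as an alternative. The deposited log10 ratio equals that of the processed signals within 0.001 for all 36 nuclear factor I values and was not tested. The authors' deposited table gives log2 fold changes, average log2 values, t and log-odds score values, p-values and adjusted p-values; limma was used, per the submitters' processing notes, and the sources used here give no other step.

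Here the medians were corrected with normexp (offset 50) and loess in limma 3.58.1 (R 4.3.3), with control spots at weight 0, and tested per probe against 0 (two-sided), p-values being adjusted by Benjamini-Hochberg across the 32983 probes kept. Channel levels were taken after loess and Aquantile. The fit was tested on simulated data. Lists use each gene's brightest probe. They hold genes acted on by nuclear factor I, genes of callosum formation, and markers of striatum, erythroid cells, choroid plexus, meninges and fibroblasts, endothelium, microglia, interneurons, oligodendrocyte lineage, astrocytes and excitatory neurons. All member probes are named, with Brpf1, the 2 to 4 list genes of smallest adjusted p, a fixed set of known targets and callosal genes, and the 2 nearest genes per member. Values of 1 listed gene are not reported here. Members and lists were chosen with earlier results of these data known. Probe accessions were named through a RefSeq table of GRCm38.p6. The scanner files used here give no probe sequence, so where a probe lies in its transcript is not known.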

Additional observations from a re-analysis of the deposited data

How the results depend on the processing

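The number of nuclear factor I probes called brighter in Cy5 was 3 as reported, 1 with the processed signals, 5 with median centring and 4 with array weights. It was 1 to 3 when an array was left out (3 without array 1, 1 without array 2 or 3). The share of all probes kept that was called in either direction also moved. It was 16.8% as reported, 4.35% with the processed signals, 20.5% with median centring, 17.9% with an intensity trend and 22.6% with array weights. Without array 1, 2 or 3 it was 12.6%, 17.4% and 6.65%. Counts below are to be read beside these shares. None was called in Cy3 under any of the 12 alternatives. Their median log2 ratio kept its sign under all 12 alternatives, from 0.06 to 0.19. For genes acted on by the family, the count in Cy3 was 4 as reported, 1 with the processed signals, 0 with median centring and 1 to 5 when an array was left out. Their count in Cy5 was 1 as reported, 0 with the processed signals, 5 with median centring, 2 with an intensity trend, 3 with array weights and 0 to 2 when an array was left out. For callosum formation, the count in Cy3 was 7 as reported, 2 with the processed signals and 2 with median centring. It was 10 with array weights and 4 to 9 when an array was left out. The callosum count in Cy5 was 6 as reported, 1 with the processed signals and 8 with median centring. It was 8 with array weights and 3 to 5 when an array was left out. Of the fits without an array, that without array 3 gave the lowest count of both lists in both channels.

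Signs of Nfib and Nfic probes turned as follows. Median centring moved the median of all probes kept from -0.01 to 0.07 and put 80.4% of all calls in Cy5, against 44.4% as reported. Median centring gave 0.34, 0.12, 0.11 and 0.16 for Nfib probes A_55_P2086682, A_55_P2143431, A_55_P2086692 and A_55_P2086687. The last was also above 0 with the processed signals (0.0032), without array 3 (0.0792, with -0.1283 without array 2) and with the local intensity median set to 0 (0.0007). Nfic probe A_55_P2122334 was at 0.0018 without array 1 and -0.0943 without array 3. The cause was not tested. The local intensity median was added after seeing the data and kept the same 3 calls. The count over all probes was 5557 as reported, 1436 with the processed signals and 2195 without array 3. The test is itself paired, since each array's ratio is the difference within a pair, so no further block was fitted. Precision is limited by the 3 arrays, and for Nfia by signals near background.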

Other observations

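The 6 nearest protein-coding genes of the RefSeq order were read beside each member. For Nfix, on chromosome 8, all 6 were measured and none was called; Gadd45gip1, with ratios of 0.42, 0.12 and 0.25, had the highest mean among them. For Nfic, on chromosome 10, 1 of 4 measured neighbours was called, Smim24, brighter in Cy5 (0.48 ± 0.29, SD, n = 3 arrays). Nfia and Nfib both lie on chromosome 4, and each had 2 of 4 measured neighbours called brighter in Cy3 and none in Cy5, where 8.99% and 7.75% of all genes were called. These were Cyp2j9 (-0.29 ± 0.12, SD, n = 3 arrays) and L1td1 (-0.46 ± 0.08) near Nfia, and Mpdz (-0.29 ± 0.14) and Zdhhc21 (-0.41 ± 0.14) near Nfib. The other measured neighbours of Nfia, Tm2d1 (0.05) and Patj (-0.16), were not called. The neighbours were chosen by position alone, after the members' values were seen.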
